A study of Mus musculus with 6 samples.

Results

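The Wnt ligands, their receptors, their antagonists and the central transducers of the pathway were examined in immortalized mouse fibroblasts (MF) with and without activation of *Ms4a15*. Members were taken by symbol from the deposited table: every Wnt, Frizzled, secreted Frizzled-related, Dickkopf and R-spondin gene, the LGR receptors, and *Frzb*, *Wif1*, *Lrp5*, *Lrp6*, *Porcn*, *Notum*, *Ctnnb1*, *Axin1*, *Axin2*, *Tcf7* and *Lef1*. This rule found 39 of the 19078 genes in the table. They were 14 Wnt ligands, 8 Frizzled receptors, 5 antagonists, 5 intracellular genes, 2 co-receptors, 2 R-spondins, 2 R-spondin receptors and *Porcn*. RNAseq was performed on poly(A)-selected RNA from 3 *Ms4a15* OE and 3 control libraries. All cells descend from immortalized conditional *Gpx4*-/- mouse embryonic fibroblasts that express Cre-ERt2 and carry a CRISPR activation system. They were grown as pooled lentiviral lines, which the methods describe as selected with the antibiotic Geneticin. No other treatment is named for them. *Ms4a15* OE cells received a guide to *Ms4a15*, whereas control cells received empty lentivirus according to the methods and are given the genotype wild type in the labels, while the design text of the series calls them parental. Whether the control cells carried a vector and were selected is thus not settled. An effect of the vector or of selection cannot be told apart from that of the guide. No source states that the 3 libraries of a group came from separate cultures, so the p-values measure the spread between these libraries, which may be technical.

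Wnt proteins are secreted ligands that carry a lipid added by the acyltransferase PORCN. They bind Frizzled receptors together with LRP5 or LRP6, which stops the destruction complex around AXIN1 from degrading β-catenin, the product of *Ctnnb1*. β-catenin then enters the nucleus and acts with TCF and LEF factors on target genes such as *Axin2*. R-spondins, bound by LGR4, LGR5 or LGR6, keep Frizzled receptors at the cell surface, while secreted antagonists bind the ligands or the co-receptors. In fibroblasts the pathway is known for its part in matrix production, migration and fate.

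The guide that sets the *Ms4a15* OE cells apart is shown because every comparison rests on it, and it was found in the promoter of *Ms4a15* at chr19:10993361-10993380 (GRCm38.p6), on the strand of the gene and 111 to 130 bases before its start.
*Ms4a15* guide: aaagactgaagcaagggact
*Ms4a15* itself had a mean of 638 normalized counts over all 6 libraries, with a log2 fold change of 12.84 ± 1.18 (SE) and an adjusted p of 2.14e-26. Its fitted control level lay under the floor of 3 counts per library, so that this fold change is no bound.

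Normalized counts are read counts divided by a size factor for the depth of the library. The table lists means over the 6 libraries, and the whole reads of each library were recovered from them for 35 of the 39 members. Libraries are given below in rising order of their size factors, which ran from 0.887 to 1.02 in *Ms4a15* OE and from 0.946 to 1.14 in control. For *Fzd6*, *Lrp6*, *Axin1* and *Ctnnb1*, only group means implied by the mean over all libraries and the fold change are given, without an SD. A gene was called where the Wald test gave an adjusted p under 0.05 (Benjamini-Hochberg over all 19078 genes). No library stood apart from the others of its group: over 1684 genes with means from 100 to 400, the SD of the log2 deviation from the group mean ran from 0.104 to 0.148. Of the fibroblast markers, 10 of 11 were above the floor of 3 counts in *Ms4a15* OE and 9 of 11 in control, with *Lum* under it in each group and *Dcn* under it in control. Of these markers 4 were higher and 4 lower, with a median log2 fold change of -0.05. Their summed level was 293915 normalized counts in *Ms4a15* OE compared with 610098 in control. *Col1a1* and *Col1a2* carried this difference (log2 fold changes -4.50 and -2.44). *Col3a1* (-2.96) and *Pdgfrb* (-3.83) fell as well. *Vim* and *Fn1* were not called, while *Thy1* (0.69), *Pdgfra* (0.60), *S100a4* (1.37) and *Dcn* (5.24) rose. Summed levels of other markers were 607 against 12.7 for 8 epithelial genes, 1320.1 against 136 for 5 myeloid genes, 216 against 35.2 for 5 endothelial genes, 107 against 12.3 for 5 adipocyte genes and 12732 against 14977 for 3 neural genes. Single genes made up most of several sums in *Ms4a15* OE: *Ocln* 585 of the epithelial sum, where 6 of the 8 genes were not called, *Lyz2* 1026 of the myeloid, *Cdh5* 187 of the endothelial and *Cidec* 80.6 of the adipocyte sum. In each of these lists a further gene was called higher. *Cd68* of the myeloid list stood at 261 normalized counts in *Ms4a15* OE against 66.9 in control. *Krt8* of the epithelial list had 17.3 against 4.41 and *Pecam1* of the endothelial list 25.7 against 6.22. *Fabp4* of the adipocyte list had a log2 fold change of 1.79. The other myeloid markers *Csf1r* (18.6 against 7.85), *Itgam* (6.23 against 5.34) and *Ptprc* (7.46 against 14.8) were not called. *Epcam*, *Esrp1* and *Emcn* had no read in *Ms4a15* OE and means of 0.352, 0.301 and 0.603 in control, under the floor in each group. The part of these markers in the results on Wnt genes was not tested, and in bulk RNA fewer expressing cells cannot be told apart from less RNA per cell.

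Among the 39 members, 17 were called, 8 of them higher and 9 lower in *Ms4a15* OE. This share, 43.6%, was close to the 42.9% called among all genes, of which 21.5% were higher and 21.5% lower. Members with a mean of 10 or more normalized counts numbered 21, and 15 of these were called, beside 60.4% of all genes at that level. The median log2 fold change was -0.09 over the members and 0.04 over all genes. Higher members were *Wnt7b*, *Rspo1*, *Lgr6*, *Lrp5*, *Lrp6*, *Fzd1*, *Fzd3* and *Fzd7*. Lower members were *Wnt10a*, *Wnt10b*, *Rspo2*, *Lgr4*, *Fzd2*, *Fzd5*, *Fzd6*, *Ctnnb1* and *Lef1*. Members of the same role thus moved in opposite directions in the ligands, the Frizzled receptors, the R-spondins and the R-spondin receptors.

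**Figure D1:**
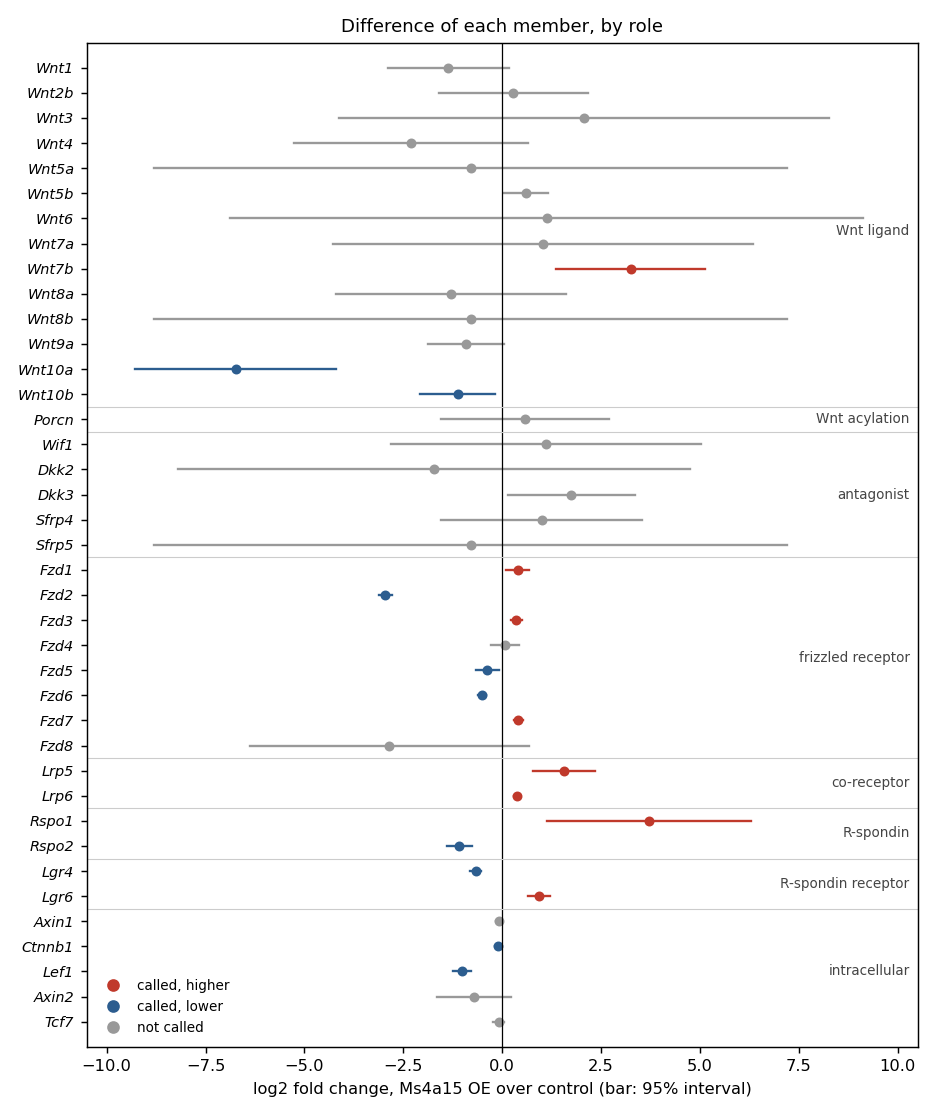
Log2 difference between *Ms4a15* OE and control for each of the 39 members, grouped by role, with bars for the 95% interval. The 17 called members are colored red where higher and blue where lower; intervals are widest for ligands and antagonists with few reads, and *Wnt10a* and *Fzd2* lie farthest below 0 among the called members.

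The Wnt ligands were sparse in these cells. Only 4 of the 14 had a mean of 10 or more normalized counts: *Wnt5b*, *Wnt10b*, *Wnt9a* and *Wnt10a*. *Wnt10a*, a ligand of the β-catenin branch, had 28.5, 19.9 and 14.1 normalized counts in the control libraries and no read in any *Ms4a15* OE library. The control libraries held 65 reads of it in all, and against the floor of 3 counts per library it was at least 6.57-fold lower in *Ms4a15* OE (adjusted p = 8.55e-07). *Wnt6*, which lies next to *Wnt10a* on chromosome 1 with 6193 bases and no annotated gene between them, had a single read in the 6 libraries. *Wnt10a* therefore changed from a low level to one not detectable at this depth, while the neighbouring ligand gave no measurable level in either group.

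*Wnt10b*, a close relative of *Wnt10a*, pointed the same way with less certainty. Its levels were 6.77, 16.0 and 12.7 normalized counts in *Ms4a15* OE and 14.8, 34.4 and 28.2 in control, so the groups overlapped. The group means of 11.8 ± 4.67 (SD, n = 3) and 25.8 ± 10.0 gave a log2 fold change of -1.13 ± 0.49 (SE) with an adjusted p of 0.0487. This call was lost when *Ms4a15* OE library a, control library b or control library c was left out of a limma fit (adjusted p from 0.0730 to 0.108). *Wnt1*, which lies 11706 bases from *Wnt10b* on chromosome 15, had 10 reads in *Ms4a15* OE and 29 in control, and its log2 fold change of -1.36 ± 0.78 was not called (adjusted p = 0.164).

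*Wnt7b* was the only ligand called higher. It rose from 1.06, 1.81 and 0.880 normalized counts in control to 9.02, 12.8 and 13.7 in *Ms4a15* OE. The groups did not overlap, and the means of 1.25 ± 0.493 and 11.8 ± 2.48 (SD, n = 3) differed by 9.49-fold (log2 fold change 3.24 ± 0.96, adjusted p = 0.00228). *Wnt7b* rested on 34 reads against 4, and its control mean lay under the floor of 3 counts per library, so that the size of this fold is uncertain. At its higher level it was still a weakly expressed gene, with 2.57 normalized counts per kb of exon.

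*Wnt5b*, a ligand mostly linked to signalling without β-catenin, had the highest level of the family. It held 62.0, 68.2 and 49.0 normalized counts in *Ms4a15* OE and 31.7, 45.2 and 40.5 in control. The groups did not overlap, but the log2 fold change of 0.60 ± 0.28 was not called (adjusted p = 0.0717, 95% interval from 0.05 to 1.15). In the limma fit on the recovered libraries the adjusted p was 0.0147. The median log2 fold change of the expressed genes around *Wnt5b* on chromosome 6 was 0.36. With this median subtracted, *Wnt5b* stood at 0.24 and was not called by the Wald test (adjusted p = 0.563). *Wnt9a* had 11.3, 10.7 and 10.8 normalized counts in *Ms4a15* OE and 22.2, 15.4 and 23.8 in control. It was not called by the Wald test either (log2 fold change -0.91 ± 0.49, adjusted p = 0.133), whereas limma gave an adjusted p of 0.0180. Both ligands thus lay apart between the groups. The limma fit was adjusted over 4163 genes rather than over all. The Wald test adjusted over genes with means of 10 or more gave 0.0513 for *Wnt5b* and 0.0970 for *Wnt9a*. Unadjusted, the Wald p was 0.0320 for *Wnt5b* and 0.0646 for *Wnt9a*. Each was above the adjusted p from limma, so the tests differed before any adjustment.

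The remaining ligands had means under 10 normalized counts and none was called. *Wnt4* had 2 reads against 11 and *Wnt8a* 3 against 8 in *Ms4a15* OE and control, respectively, while *Wnt2b* had 12 against 11. *Wnt3*, *Wnt5a*, *Wnt6*, *Wnt7a* and *Wnt8b* had at most 3 reads over all libraries, a depth at which no difference was detectable. *Porcn*, the enzyme that acylates all of these ligands, had 12 reads against 9 and was not called (log2 fold change 0.58 ± 1.08). The plot of library values shows how few reads stand behind the called ligands compared with the receptors.

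**Figure D2:**
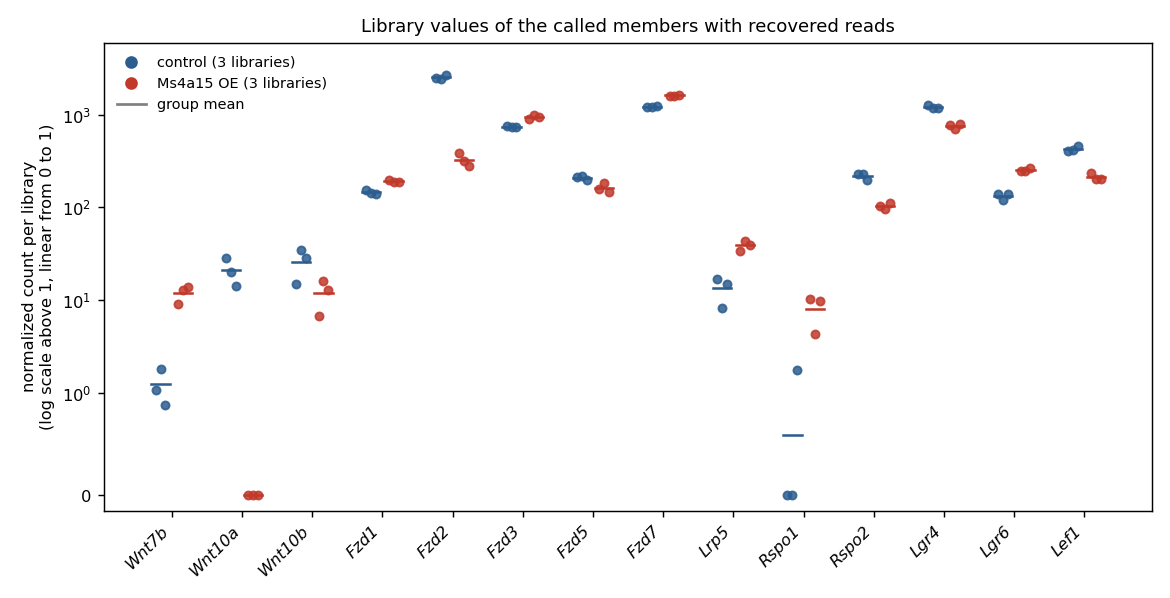
Normalized counts in each of the 6 libraries for the 14 called members with recovered reads, on a log axis above 1 and a linear axis from 0 to 1, with a line at each group mean. *Fzd2* drops from 2419 to 2695 in control to 278 to 386 in *Ms4a15* OE, *Wnt10a* sits at 0 in the 3 *Ms4a15* OE libraries, and only *Wnt10b* overlaps between the groups.

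The Frizzled receptors included the largest difference in normalized counts of all the members. *Fzd2*, a receptor that can signal with and without β-catenin, is annotated at chr11:102604396-102608058 (GRCm38). It had 386, 320 and 278 normalized counts in *Ms4a15* OE and 2471, 2419 and 2695 in control. The groups lay far apart, with means of 328 ± 54.3 and 2529 ± 147 (SD, n = 3). *Fzd2* was 7.71-fold lower in *Ms4a15* OE (log2 fold change -2.95 ± 0.09, adjusted p = 3.10e-260), and its log2 difference ran from -3.08 to -2.84 over the 8 limma fits. The expressed genes around it had a median log2 fold change of 0.05.

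The other called receptors changed by less than 1.5-fold. *Fzd7*, the third most abundant receptor per length in control cells, rose from 1221, 1204 and 1250.1 normalized counts to 1611, 1589 and 1651. The libraries were tight, with means of 1225 ± 23.2 and 1617 ± 31.5, so that a 1.32-fold rise exceeded their spread (log2 fold change 0.40 ± 0.06, adjusted p = 5.44e-11). *Fzd3*, known for its role in planar polarity and axon growth, had 902, 1004 and 954 normalized counts in *Ms4a15* OE and 758, 740.4 and 735 in control. Its rise was 1.28-fold (adjusted p = 4.94e-06). *Fzd1* had 199, 188 and 189 normalized counts against 155, 143 and 139, a 1.32-fold rise (adjusted p = 0.0191). In each of these receptors every *Ms4a15* OE library was above every control library.

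*Fzd5* and *Fzd6* fell. *Fzd5* had 158, 183 and 145 normalized counts in *Ms4a15* OE and 213, 216 and 199.7 in control, which was 1.29-fold lower (adjusted p = 0.0275). *Fzd6*, a receptor of the planar polarity branch and the most abundant of the family per length, had implied means of 2728 normalized counts in *Ms4a15* OE against 3886 in control. It was 1.42-fold lower (log2 fold change -0.51 ± 0.05, adjusted p = 2.63e-20). *Fzd4* overlapped between the groups, at 111 to 159 normalized counts in *Ms4a15* OE against 122 to 153 in control, and was not called (log2 fold change 0.06, 95% interval from -0.29 to 0.41). *Fzd8* had 1 read against 9 and was not called either (adjusted p = 0.215). Calls of *Fzd1*, *Fzd3* and *Fzd5* did not hold against a minimum change of 1.2-fold.

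Levels between receptors were compared per kb of annotated exon. In control cells *Fzd6* came first at 887 normalized counts per kb, followed by *Fzd2* at 690.3, *Fzd7* at 270.4, *Fzd3* at 58.5, *Fzd1* at 34.7, *Fzd5* at 30.3, *Fzd4* at 20.2 and *Fzd8* at 0.454. In *Ms4a15* OE cells the order was *Fzd6* at 622, *Fzd7* at 357, *Fzd2* at 89.5, *Fzd3* at 74.9, *Fzd1* at 45.7, *Fzd5* at 23.4, *Fzd4* at 21.0 and *Fzd8* at 0.0595. *Fzd2* and *Fzd7* thus exchanged places. In *Ms4a15* OE the libraries of *Fzd2* (75.9 to 105 per kb) overlapped with those of *Fzd3* (70.9 to 78.8), and those of *Fzd5* overlapped with those of *Fzd4*, so that these neighbours in the order did not differ beyond their spread. The sum over the 8 receptors was 1992 per kb in control and 1234 in *Ms4a15* OE. Of this sum *Fzd2* made up 34.7% in control and 7.25% in *Ms4a15* OE, whereas *Fzd7* made up 13.6% and 28.9%. These shares rest on the length of all annotated exons and change with the transcript a gene uses.

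**Figure D3:**
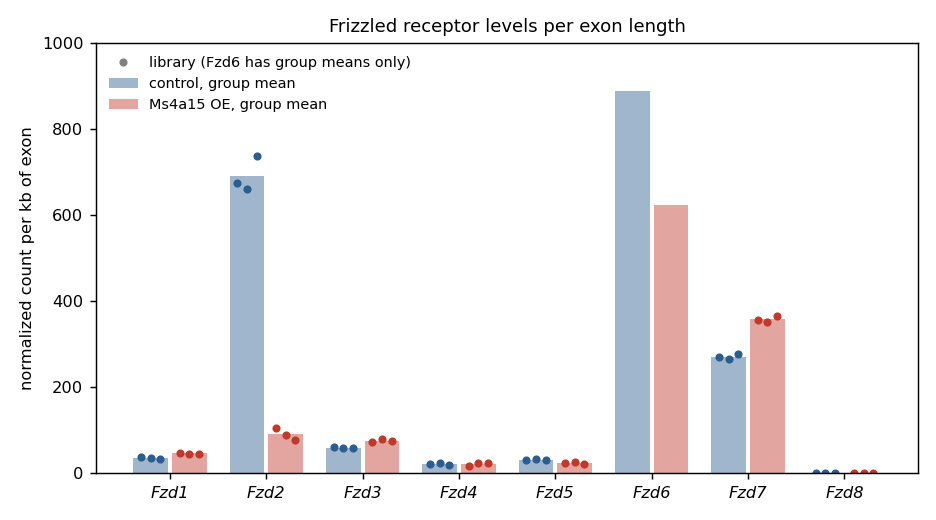
Normalized counts per kb of exon for the 8 Frizzled receptors, with bars from 0 for the group means and points for the libraries (*Fzd6* has group means only). *Fzd2* goes from 690.3 in control to 89.5 in *Ms4a15* OE, while *Fzd7* goes from 270.4 to 357.

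The co-receptors were both higher. *Lrp5* (chr19:3584828-3686564) had 33.8, 43.7 and 39.2 normalized counts in *Ms4a15* OE and 16.9, 8.14 and 15.0 in control. The groups did not overlap, and the difference was 2.92-fold (log2 fold change 1.56 ± 0.40, adjusted p = 0.000365). *Lrp6* (chr6:134446476-134566965) was far more abundant, at 808 normalized counts per kb in *Ms4a15* OE and 625 in control, compared with 6.47 and 2.22 for *Lrp5*. Its implied means of 7566 and 5859 normalized counts differed by 1.29-fold (log2 fold change 0.37 ± 0.04, adjusted p = 6.39e-18). The expressed genes around *Lrp6* had a median log2 fold change of 0.43, however, and with this median subtracted the value for *Lrp6* turned to -0.057 (adjusted p = 0.282). The median around *Lrp5* was -0.30, against which the rise of *Lrp5* stood out further.

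The R-spondins and their receptors moved in opposite directions within each pair. *Rspo2* (chr15:43020794-43170826) fell from 231, 228 and 199 normalized counts in control to 104, 94.8 and 112 in *Ms4a15* OE. The groups did not overlap, and the means of 219 ± 17.9 and 103 ± 8.40 (SD, n = 3) differed by 2.12-fold (log2 fold change -1.08 ± 0.16, adjusted p = 8.61e-11). *Rspo1*, in contrast, had 10.2, 4.26 and 9.79 normalized counts in *Ms4a15* OE, whereas control libraries a and b had no read and control library c had 1.76. It was called higher (log2 fold change 3.71 ± 1.32, adjusted p = 0.0130). With 23 reads against 2, the ratio was 12.9, with an exact 95% interval from 3.18 to 112.8 that covers counting error only. Even so, *Rspo2* remained the more abundant R-spondin in *Ms4a15* OE, at 30.9 normalized counts per kb against 4.40 for *Rspo1*.

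*Lgr4*, the R-spondin receptor with the broadest known expression, had 773, 709 and 796 normalized counts in *Ms4a15* OE and 1259, 1194 and 1172 in control. It was 1.59-fold lower (log2 fold change -0.67 ± 0.07, adjusted p = 1.47e-19). *Lgr6*, best known as a marker of stem cells in skin, had 247, 244 and 265 normalized counts in *Ms4a15* OE and 139, 119 and 141 in control, a 1.89-fold rise (log2 fold change 0.92 ± 0.14, adjusted p = 8.29e-10). Neither receptor overlapped between the groups. Per kb of exon, *Lgr4* stood at 239 in control and 150.0 in *Ms4a15* OE, and *Lgr6* at 19.8 and 37.5, so *Lgr4* stayed the more abundant receptor.

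The promoters of this pair are shown because the genes lie in one family and moved in opposite directions, and a promoter of *Wnt5b* is shown because it was the only member promoter with the TCF/LEF core ATCAAAG on either strand. Each sequence is the 250 bases before the start that RefSeq annotates (GRCm38.p6), on the strand of the gene, with capitals for the TCF/LEF core, the GC box GGGCGG, the CCAAT box CCAAT and the TATA box TATAAA in either direction. The coordinates are chr2:109917397-109917646 on the plus strand for *Lgr4*, chr1:135105277-135105526 on the minus strand for *Lgr6* and chr6:119449387-119449636 on the minus strand for *Wnt5b*.
*Lgr4*: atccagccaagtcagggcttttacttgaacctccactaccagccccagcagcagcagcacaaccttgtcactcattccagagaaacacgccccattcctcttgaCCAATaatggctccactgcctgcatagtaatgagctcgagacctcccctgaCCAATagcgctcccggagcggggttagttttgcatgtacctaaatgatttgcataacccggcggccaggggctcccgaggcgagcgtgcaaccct
*Lgr6*: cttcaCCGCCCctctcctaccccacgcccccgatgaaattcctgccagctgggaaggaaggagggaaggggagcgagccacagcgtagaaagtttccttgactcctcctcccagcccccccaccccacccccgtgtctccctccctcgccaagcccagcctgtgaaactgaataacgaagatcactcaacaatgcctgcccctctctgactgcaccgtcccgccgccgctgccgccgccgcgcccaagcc
*Wnt5b*: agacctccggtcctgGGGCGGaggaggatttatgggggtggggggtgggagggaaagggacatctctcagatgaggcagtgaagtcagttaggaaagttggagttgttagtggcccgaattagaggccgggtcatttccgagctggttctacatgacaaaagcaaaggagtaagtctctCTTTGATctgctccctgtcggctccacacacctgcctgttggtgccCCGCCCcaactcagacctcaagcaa
The stretch of *Lgr4* held 2 CCAAT boxes, that of *Lgr6* held 1 GC box, and that of *Wnt5b* held 1 TCF/LEF core in reverse (CTTTGAT) and 2 GC boxes. Promoters of 300 bases (250 before and 50 after the start) were given for 24 of the 39 members, 31 promoters in all. The TCF/LEF core was in 1 of these 31 (3.23%) and in 3.73% of all 32851 promoters. The GC box was in 77.4% of the member promoters and 35.7% of all, the CCAAT box in 35.5% and 37.4%, and the TATA box in 19.4% and 13.6%. The median GC content was 67.3% in the member promoters and 52.7% in all. No promoter of *Lef1*, *Lgr4*, *Lgr6*, *Fzd7*, *Wnt10b* or *Axin2* held the TCF/LEF core, which says only that these letters are not in these windows.

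None of the 5 secreted antagonists was called by the Wald test, and all had means under 10 normalized counts, which left them out of the limma fits. *Dkk3*, a divergent Dickkopf protein, was the only one with an unadjusted p under 0.05. It had 10.2, 12.8 and 10.8 normalized counts in *Ms4a15* OE and 0, 1.81 and 7.92 in control (log2 fold change 1.75 ± 0.82, adjusted p = 0.0729). The *Ms4a15* OE libraries were above each control library, but the control libraries were widely spread. *Sfrp4*, which binds Wnt proteins outside the cell, had 9 reads against 5. *Wif1* had 4 reads against 2, and *Dkk2* and *Sfrp5* had no read in *Ms4a15* OE and at most 2 in control. The rule sought *Frzb* and *Notum* as well, but neither was among the members found.

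Among the 5 intracellular members, *Ctnnb1* and *Lef1* fell, while *Axin1*, *Axin2* and *Tcf7* were not called. *Ctnnb1* was the most abundant member, with implied means of 22468 normalized counts in *Ms4a15* OE against 24300.3 in control. It was 1.08-fold lower, a small difference that passed the test (log2 fold change -0.11 ± 0.03, adjusted p = 0.00157) and did not hold against a minimum change of 1.2-fold. *Axin1*, the scaffold of the destruction complex, was not called, and its 95% interval ran from -0.15 to 0.01 on the log2 scale. *Tcf7* had 867, 839.8 and 842 normalized counts in *Ms4a15* OE and 893, 890.5 and 931 in control. Its libraries did not overlap, but the log2 fold change of -0.09 ± 0.07 was not called (adjusted p = 0.342).

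*Lef1* (chr3:131110471-131224356), which encodes a nuclear partner of β-catenin and is itself a target of the pathway, was the intracellular member with the largest change. It had 235, 202 and 202 normalized counts in *Ms4a15* OE and 408, 419 and 463 in control. The groups did not overlap, and the means of 213 ± 18.8 and 429.7 ± 29.1 (SD, n = 3) differed by 2.02-fold (log2 fold change -1.02 ± 0.12, adjusted p = 4.46e-17). The expressed genes around *Lef1* had a median log2 fold change of -0.34, and *Lef1* was still called with that median subtracted. *Axin2*, the target gene most often used as a readout of β-catenin activity, had 16.9, 16.0 and 6.85 normalized counts in *Ms4a15* OE and 21.1, 18.1 and 25.5 in control. Each control library was above the *Ms4a15* OE libraries, yet with 37 reads against 69 the log2 fold change of -0.72 ± 0.48 was not called (adjusted p = 0.251). The 95% interval ran from -1.66 to 0.22. In the limma fits the log2 difference was -0.77 with all libraries (adjusted p = 0.070), -0.37 without *Ms4a15* OE library c (0.293), -0.99 without library a (0.0329) and -0.95 without library b (0.0485), so that leaving out 1 library moved its size and its call.

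The spread of the libraries was compared with that of other genes. Of the 12 members with recovered reads and a mean from 10 to 400 normalized counts, 10 did not overlap between the groups, 4 higher and 6 lower. Among all genes at that level with recovered reads, 62.2% did not overlap. The recovered reads follow from the fitted fold changes, so their direction is no second reading of these. The plot of level against difference places the members within the spread of all genes.

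**Figure D4:**
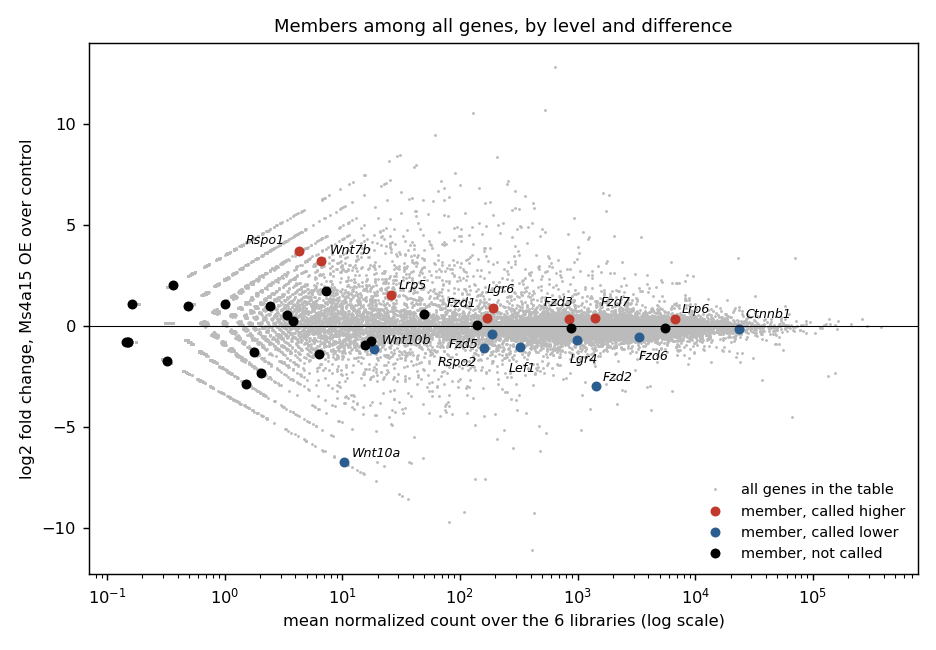
Mean normalized count over the 6 libraries (log axis) against the log2 difference between *Ms4a15* OE and control, for all 19078 genes in grey and the 39 members in color. The 17 called members are named; *Fzd2* stands at -2.95 with a mean of 1428, and the other called members with means above 100 lie between -1.08 and 0.92.

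The other genes of the pathway were read from lists of 101 genes, of which 92 were in the table and were not members themselves. Of these, 52 were called, 20 higher and 32 lower, with a median log2 fold change of -0.06. With the median of the expressed genes around each gene subtracted, 24 were higher and 25 lower of 87 with a position, and of 48 called genes with a position 39 kept their call and direction and 4 changed sign. At a mean of 10 or more normalized counts 65.4% were called, beside 60.4% of all genes. Among 19 co-receptors and modulators of the cell surface 5 were higher and 5 lower, 52.6% called beside 42.9% of all genes. At means of 10 or more the shares were 83.3% and 60.4%. *Cer1*, a secreted antagonist of Wnt, Nodal and BMP ligands, had 35.0, 44.8 and 42.1 normalized counts in *Ms4a15* OE and 1.06, 0.904 and 2.64 in control (log2 fold change 4.70 ± 0.74, adjusted p = 1.30e-09). The control mean of *Cer1* lay under the floor of 3 counts per library. *Draxin*, listed under an older symbol, and *Apcdd1*, which encode inhibitors of the pathway at the cell surface, rose by 3.68-fold and 2.48-fold. The ubiquitin ligase gene *Znrf3*, whose product removes Frizzled receptors, rose as well (log2 fold change 0.24 ± 0.06), whereas *Kremen1*, which encodes a receptor for Dickkopf proteins, fell (-0.86 ± 0.08) and so did *Wls*, the carrier of Wnt proteins to the membrane (-0.25 ± 0.05). The genes around *Wls* had a median of -0.32, and with it subtracted *Wls* turned to 0.070 and was not called (adjusted p = 0.223).

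Of 16 cytoplasmic transducers and destruction complex genes, 6 were lower and none was higher by the Wald test, with 0 higher and 7 lower at an unadjusted p under 0.05. The share called was 37.5% beside 42.9% of all genes, and 40.0% beside 60.4% at means of 10 or more. *Dvl1* had the lowest adjusted p of them (log2 fold change -0.81 ± 0.06), followed by *Tnks*, which encodes a poly-ADP-ribosylating regulator of axin (-0.39 ± 0.04). The genes around them had medians of -0.61 and -0.32, which left -0.20 for *Dvl1* (adjusted p = 0.00433) and -0.077 for *Tnks* (0.120). *Csnk1a1*, called lower at -0.22, turned to 0.30 by the same subtraction (adjusted p = 1.01e-13). *Tnks2* (0.27) and *Btrc* (0.34) then passed the threshold as higher, and *Apc* (-0.13) and *Dvl2* (-0.15) as lower. *Dvl3* (-0.43, adjusted p = 1.60e-08) and *Apc2* (-0.86, adjusted p = 0.000384) stayed called lower. With neighbours subtracted, the list thus did not move one way. Among 12 nuclear factors, 3 were higher and 7 lower, 83.3% called beside 60.4% of all genes at their level. *Tcf7l1*, a member of the TCF family known mostly as a repressor, fell by 1.11 on the log2 scale (SE 0.09, adjusted p = 7.63e-32), as did the co-activator genes *Bcl9* (-0.50 ± 0.07) and *Bcl9l* (-0.55 ± 0.14). With the medians around them subtracted, *Tcf7l1* stood at -0.53 (adjusted p = 3.86e-08) and *Bcl9* at -0.12 (0.197), where it was not called.

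Target genes did not move one way. Of 16 in the table, 6 were higher and 5 lower, 68.8% called beside 42.9% of all genes, or 78.6% beside 60.4% at means of 10 or more. *Ccnd1*, a cyclin of the G1 phase, rose (log2 fold change 0.93 ± 0.03), and so did *Cd44* (0.59 ± 0.04). *Ccn4*, listed as *Wisp1*, had 60.9, 54.4 and 51.9 normalized counts in *Ms4a15* OE and 230.3, 228 and 274 in control, a 4.38-fold fall (adjusted p = 2.21e-30). The target genes are also controlled by other pathways. Planar cell polarity genes were 3 higher and 4 lower of 16 (43.8%, close to the share of all genes, and 50% beside 60.4% at means of 10 or more). *Celsr1* had 49.6, 55.4 and 42.1 normalized counts in *Ms4a15* OE and 7.40, 8.14 and 7.92 in control. *Vangl1* was lower (-0.57 ± 0.06), as was *Prickle2* at a mean of 8.12 normalized counts (-1.84 ± 0.76). Genes of the calcium branch were 5 higher and 5 lower of 17 (58.8%, and 62.5% at means of 10 or more, close to all genes at that level). Here the phospholipase genes *Plcb1* and *Plcb2* rose by 1.55 (SE 0.09) and 3.45 (SE 0.63) on the log2 scale. *Plcb2* stood at 30.8 normalized counts in *Ms4a15* OE against 2.80 in control, just under the floor of 3 counts per library. *Nfatc1*, a calcium-dependent transcription factor, fell by 1.31 on the log2 scale (SE 0.05), and *Nfatc2* by 1.32 (SE 0.27).

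**Figure D5:**
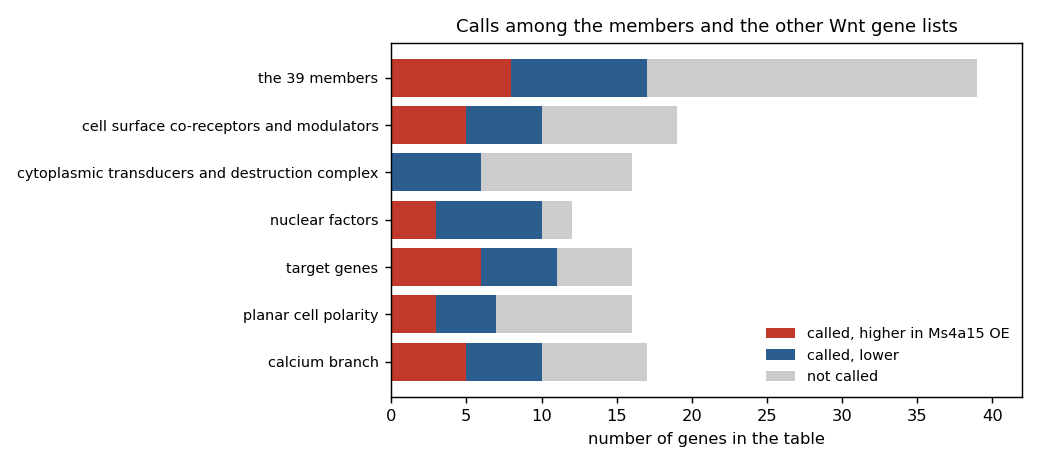
Number of genes called higher, called lower and not called among the 39 members and in the 6 lists of other Wnt genes; a gene can stand in more than one list. The cytoplasmic list has 6 lower and 0 higher genes of 16, and the nuclear factors 7 lower and 3 higher of 12. Calls are those without subtraction of neighbouring genes.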

How the data were processed

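RNAseq libraries (poly(A) selection) were made from cells of the *Ms4a15* OE (3) and control (3) groups. According to the methods, reads were aligned by the authors with STAR to mm10, counted per gene with HTSeq-count and compared with DESeq2; the submitters' processing notes also name TopHat, Cufflinks and Cuffdiff. Whether counting used strand is not given in the sources used here, so reads of overlapping genes on opposite strands cannot be told apart. As signal, the authors deposited one value a gene, its count divided by the size factor and averaged over the 6 libraries. Fold changes and their standard errors are deposited on the log2 scale, as the authors' comparison of *Ms4a15* OE with control. Each deposited p-value belongs to the authors' Wald test, beside its adjusted form.

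The table has no values of single libraries. The authors' log2 fold changes and standard errors were therefore used as input: p-values were recomputed from them by a two-sided Wald test, adjusted by Benjamini-Hochberg over all 19078 genes, and the deposited p-values served only as a check. Group means, folds and intervals were computed here. Reads per library were recovered by searching for the whole counts that give the deposited mean, standard error and log2 fold change (within 1e-09) of a negative binomial fit. Size factors came from genes with 1 read in 1 library, and the sign of the fold change gave the group. A single solution was found for 10327 of 10329 genes with means under 400 normalized counts, or 1500 for members. In simulated data every single solution was right (728 genes). Recovered libraries carry no replicate number, and total depth is unknown.

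The members and gene lists were chosen with earlier results of these data known. All members could be named, with full values for those called; other genes only from the lists, with *Ms4a15*, and values for list genes called changed by 1 or more on the log2 scale. Further list genes were named after their values were seen. Older symbols were matched through RefSeq synonyms. Positions and exon lengths came from GENCODE M21 (GRCm38, which is mm10). Alternatives were adjustment over genes with means of at least 10, a minimum log2 change of 1, a 1.2-fold null, centring, and subtraction of the median of 20 expressed genes on each side. After seeing the data, limma with a trend on log2(normalized count + 0.5) was added for 4163 genes with recovered reads and a mean of at least 10, with a pseudocount of 1 and with each library left out, and the subtraction of neighbours was extended to the other pathway genes. Python 3.11.15, scipy 1.17.1, R 4.3.3 and limma 3.58.1 were used.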

Additional observations from a re-analysis of the deposited data

How the results depend on the processing

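At a minimum log2 change of 1, 8 of 39 members and 11 of 92 other Wnt pathway genes were called. Of all 19078 genes 1944 were. Without this minimum the counts were 17, 52 and 8187. Tested against a 1.2-fold change, 12 of 39 members, 28 of 92 other Wnt pathway genes and 3844 of all 19078 genes were called. Among the 17 members with recovered reads and means of at least 10, the Wald test called 12 and limma 14. With a library left out, limma called 12 to 14. The Wald test called 60.4% of all genes at that level, recovered or not. No share over all genes is given here for limma. *Lrp6* turned to -0.057 when the median of its neighbours was subtracted. *Wnt10b* lost its call against a 1.2-fold change (adjusted p = 0.169) and when centred on the median (0.0501). *Fzd5* lost its call when the median of its neighbours was subtracted (0.0984), under which *Axin1* (0.00397) and *Tcf7* (0.0469) gained one. Among the other Wnt pathway genes the calls were 20 higher and 32 lower of 92 before this subtraction. After it they were 24 and 25 of the 87 with a position, so the sets of genes differ. The cause of these changes was not tested. *Wnt5b* and *Wnt9a* were called in 6 of 8 limma fits each and *Axin2* in 2 of 8. Members with few reads could be judged only for large differences. No paired analysis was possible because the recovered libraries carry no replicate number. TMM scaling, another count test and a low-count filter on counts were not run, since counts of all genes were not recovered.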
